A study of Mus musculus with 20 samples.

Results

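Cultured midbrain neurons grown for 5 days in vitro with GDNF were compared with cultures grown for the same time without it, for every mature microRNA (miRNA) measured. The comparison took all libraries labelled day 5 in vitro, 5 with GDNF and 5 without, which are 10 of the 20 libraries of the series. All 10 came from primary midbrain neurons of C57Bl6/J mouse embryos of day 12.5, taken from the ventral mesencephalon without its meninges and grown without serum. The GDNF cultures had 10 ng/ml GDNF in the medium, and the control cultures are labelled with no agent. The labels do not say whether the replicates were separate cultures, litters or animals, and the p-values therefore cover no more than the variation among these libraries, which may be technical. The other 10 libraries, from day 1, served here only to estimate the spread of each miRNA. Values are given with all 5 controls and, for the miRNAs and lists on which the comparison turns, also without control libraries 1 and 5, in which a set of miRNA arms stood far above every other library.

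GDNF (glial cell line-derived neurotrophic factor) is a secreted protein that signals through a GFRα co-receptor and the receptor tyrosine kinase Ret, and it is known for keeping midbrain dopaminergic neurons alive and promoting the growth of their axons. A miRNA hairpin is cut into a 5p and a 3p arm. A mature arm loaded into an Argonaute protein represses mRNAs that pair with its seed, bases 2 to 8 from its 5′ end. miR-182 and miR-183, the miRNAs in the title of the study, form a cluster with miR-96 whose members are made from a common transcript, known mainly from sensory organs.

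The sequences of the miRNAs on which the comparison turns are printed with the seed in capitals, 5′ to 3′, from RefSeq annotation of GRCm38.p6. Sequences were matched for 478 of the 542 miRNAs tested. The 3 main arms of the miR-183 cluster are shown because 1 of them, miR-182-5p, was the miRNA called. They lie on the minus strand of chromosome 6, at chr6:30165962-30165986 for miR-182-5p, chr6:30169711-30169732 for miR-183-5p and chr6:30169506-30169528 for miR-96-5p, each within its own miRNA gene (Mir182, Mir183 and Mir96).
miR-182-5p: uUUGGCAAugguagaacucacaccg
miR-183-5p: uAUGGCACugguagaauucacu
miR-96-5p: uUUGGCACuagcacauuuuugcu
No 2 of these seeds are identical, and all 3 hold UGGCA at bases 3 to 7.

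The family of miR-148 and miR-152 is shown because its 3 members share 1 seed, CAGUGCA, but had unlike log2 values with all controls. Whether the members differed from each other was not tested. miR-148a-3p lies at chr6:51269829-51269850 (minus strand), miR-148b-3p at chr15:103285185-103285206 (plus strand) and miR-152-3p at chr11:96850439-96850459 (plus strand).
miR-148a-3p: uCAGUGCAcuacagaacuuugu
miR-148b-3p: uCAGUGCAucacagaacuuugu
miR-152-3p: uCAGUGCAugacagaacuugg

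The last set is shown to set arms that were high in control libraries 1 and 5 beside arms that were not. The first 4 were raised in these libraries and had log2 values of -2.12 or lower for GDNF against control. The last 2 are opposite arms, of miR-7a-5p and miR-411-3p, that were not raised.
miR-24-3p: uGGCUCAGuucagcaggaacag
miR-7a-5p: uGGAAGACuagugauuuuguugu
miR-379-5p: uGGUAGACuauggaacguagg
miR-411-3p: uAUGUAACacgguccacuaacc
miR-7a-1-3p: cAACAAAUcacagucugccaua
miR-411-5p: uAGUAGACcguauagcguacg

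Total counts were between 1061619 and 4324505 in the controls and between 1781030 and 3983722 with GDNF, so that 1 read was worth 0.231 to 0.942 CPM (counts per 1000000 counts). In both groups replicates 1 and 2 had more reads outside annotated miRNAs (17.7 to 19.5%) than replicates 3 to 5 (9.51 to 13.3%). The labels name no batch for these replicates. Of 5 library measures, the share of counts held by the 10 most abundant miRNAs differed most, with 51.4% ± 1.13 with GDNF and 48.4% ± 2.38 without (SD, n = 5 each; two-sided exact permutation p = 0.0397, adjusted over the 5 measures 0.198). The exact p-values of total count, reads outside annotated miRNAs, share of 3p arms and number of miRNAs detected were between 0.706 and 0.881, where the smallest p that 5 libraries against 5 can give is 0.00794.

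The neuronal label was checked against marker miRNAs. The 8 tested arms of a neuron-enriched list summed to 18977 to 25071 CPM in the controls and 17597 to 21087 CPM with GDNF. Its defining member miR-124-3p, which is specific to neurons, stood at 6064 ± 165 and 6044 ± 880 CPM (SD, n = 5 each). Of the neuron-enriched arms too rare to be tested, miR-129-5p reached at most 9.55 CPM and miR-138-5p had 0 reads at day 5. Arms listed for astrocytes, microglia and injury summed to 2598 to 3205 and 2827 to 3229 CPM, nearly all of it miR-21a-5p, which many cell types express. Of the arms of this list too rare to be tested, the microglial and myeloid miR-223-3p did not exceed 3.77 CPM in any day 5 library, and miR-142a-3p did not exceed 1.123. The other arm, miR-142a-5p, was tested, as was miR-155-5p of the same list. The levels of these tested arms are not given here, so the low values do not show that such cells were absent. The oligodendrocyte-lineage list summed to 356 to 551 CPM without and 334 to 460 CPM with GDNF. Its miR-219a-2-3p was at 294.9 CPM in GDNF library 1, and its next highest value with GDNF was 195.7 CPM. The oligodendrocyte miR-338-3p reached at most 1.123 CPM, while the other arm, miR-338-5p, was tested. The list for red blood cells summed to 3292 to 5338 CPM in the controls and 4217 to 6380 CPM with GDNF. It was made up mostly of miR-486-5p, while the erythroid miR-451a was at 9.41 ± 5.45 and 9.60 ± 7.08 CPM. Vascular and mesenchymal arms summed to 2185 to 3667 and 1790 to 4874 CPM, and epithelial and neuroendocrine arms to 236 to 383 and 288 to 649 CPM, with miR-205-5p at no more than 3.51 CPM. In such bulk samples, fewer cells of a type and less of a miRNA per cell cannot be told apart.

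The clearest difference at day 5 lay in the miR-183 cluster. Its member miR-182-5p was higher with GDNF than in the controls, and it was the only miRNA of 542 called (0.185% of those tested) at an edgeR adjusted p below 0.05. The control libraries 1 to 5 held 539, 832, 273, 291.0 and 222.7 CPM of miR-182-5p. The GDNF libraries 1 to 5 held 1434, 1552, 907, 825 and 1191 CPM. The groups touched at 1 point: control library 2 lay just above GDNF library 4, and each of the other 4 GDNF libraries exceeded all controls. Replicates 1 and 2 were the highest of both groups. The difference was 2.74-fold in the means (431.6 ± 255 against 1182 ± 317 CPM, SD, n = 5 each), with a log2 fold change of 1.46 (SE 0.277, 95% interval 0.88 to 2.04, edgeR adjusted p = 0.0193). On day 1, where no test is made here, the 10 libraries of both groups lay between 2408 and 4310 CPM, above every day 5 library. Fitted on the day 5 libraries alone, miR-182-5p kept its log2 fold change at 1.46 but was not called (edgeR adjusted p = 0.442). With the replicate number as a block, that fit gave 1.58 and an edgeR adjusted p of 0.0667. The call thus rests on a fit that includes the day 1 libraries.

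miR-183-5p, the second cluster member, was at 166, 133, 39.9, 44.2 and 67.0 CPM in control libraries 1 to 5. With GDNF it was at 213, 202.7, 120.5, 177 and 206 CPM. Controls 1 and 2 lay above the lowest GDNF library and the remaining controls lay below all GDNF libraries. The log2 fold change was 1.05 (SE 0.307, 95% interval 0.41 to 1.69), which did not pass the test (edgeR adjusted p = 0.0845). With the replicate number as a block it did, with a log2 value of 1.24 and an edgeR adjusted p of 0.0197. That block takes equal numbers as pairs, which the labels do not state. Its 3p arm, miR-183-3p, the strand that is less often loaded, was at 2.14 ± 1.74 CPM without and 1.89 ± 0.892 CPM with GDNF and gave a log2 value of -0.0035, a value that rests on few reads per library.

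miR-96-5p was the rarest of the 3 cluster arms. Its control libraries held 2.83, 2.96, 0.593, 0.303 and 2.18 CPM, and its GDNF libraries 5.02, 4.67, 3.97, 3.74 and 3.90 CPM. Every GDNF library lay above every control. These levels rest on few reads, 6, 3, 3, 1 and 10 in the controls and 10, 8, 16, 15 and 15 with GDNF, so that 3 of the 5 controls held 3 reads or fewer. The log2 fold change of 1.44 (SE 0.41) did not pass (edgeR adjusted p = 0.075).

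The split between replicates 1 and 2 and replicates 3 to 5 was used to look at the cluster within each set, a comparison added after the data were seen. For miR-182-5p the log2 value was 1.06 within replicates 1 and 2 (edgeR adjusted p = 0.0128) and 1.91 within replicates 3 to 5 (adjusted p = 8.41e-07). For miR-183-5p it was 0.37 (adjusted p = 0.469) and 1.76 (adjusted p = 9.07e-05), and for miR-96-5p 0.63 (adjusted p = 0.659) and 1.82 (adjusted p = 0.242). The sets hold 2 libraries against 2 and 3 against 3, and the day 1 libraries supplied most of the spread. Both sets are part of the libraries that gave the call, so these p-values are no separate support for it. The direction was the same in both sets for all 3 arms. Whether the difference itself changed between the sets was not tested.

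**Figure D1:**
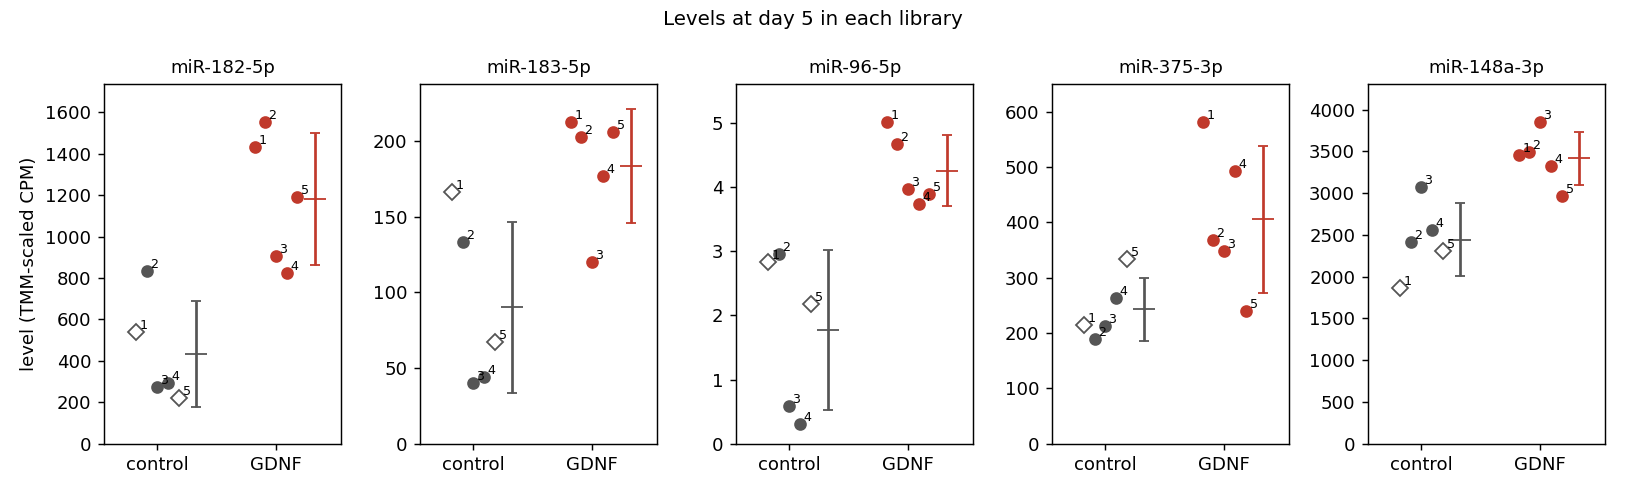
Level in TMM-scaled CPM of 5 miRNAs in each day 5 library, control in grey and GDNF in red, with the replicate number beside each point and open diamonds for control libraries 1 and 5. The bars at the side of each group give the mean and SD of 5 libraries. The 5 GDNF libraries of miR-96-5p all lie above its controls, and those of miR-182-5p overlap the controls only at control library 2.

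Outside the cluster, miR-375-3p, an abundant miRNA of neuroendocrine and pancreatic islet cells, was at 215, 190, 213, 263 and 333 CPM in control libraries 1 to 5. With GDNF it was at 581, 367, 348, 492 and 239 CPM. GDNF library 5 lay inside the control range and the other 4 above it. The log2 value was 0.74 (SE 0.191, edgeR adjusted p = 0.055). The same 2 sets of replicates gave 1.13 (edgeR adjusted p = 0.0227) for replicates 1 and 2, and 0.42 (adjusted p = 0.424) for the rest.

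miR-148a-3p, which is known as a regulator of the DNA methyltransferase Dnmt1 and of lipid metabolism, was at 1864, 2421, 3069, 2558 and 2304 CPM in the controls and at 3456, 3490, 3850, 3329 and 2965 CPM with GDNF. Only control 3 reached the GDNF range, above GDNF library 5. The log2 value was 0.48 (SE 0.122, edgeR adjusted p = 0.055), and with the replicate block it was 0.50 and passed (edgeR adjusted p = 0.0197). Its 5p arm, miR-148a-5p, was at 39.6 ± 10.1 CPM without and 52.3 ± 9.40 CPM with GDNF (SD, n = 5 each; log2 0.40, edgeR adjusted p = 0.284).

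The family members with the same seed as miR-148a-3p did not give the same values. miR-148b-3p had a log2 value of 0.22 (SE 0.113, edgeR adjusted p = 0.347). miR-152-3p had -1.58, with 172, 24.7, 35.4, 23.01 and 195 CPM in the controls and 21.1 to 46.6 CPM with GDNF. The 2 high values are those of control libraries 1 and 5, and without these libraries miR-152-3p had a log2 value of 0.09, miR-148b-3p of 0.06, miR-148a-5p of 0.19 and miR-148a-3p of 0.33.

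miR-192-5p and miR-301b-3p differed little in size but were separated between the groups. miR-192-5p, best known from liver, gut and kidney, was at 2402, 3686, 3753, 3876 and 2886 CPM in the controls and 4180, 3943, 4528, 4367 and 4611 CPM with GDNF, with no overlap (log2 0.38, SE 0.113, edgeR adjusted p = 0.0845). miR-215-5p, which has the same seed (UGACCUA), had 17.02 ± 8.41 and 17.7 ± 5.40 CPM and a log2 value of 0.10. miR-301b-3p, of the miR-130/301 family, was at 746 to 998 CPM without and 1009 to 1194 CPM with GDNF (log2 0.32, SE 0.0997, edgeR adjusted p = 0.0893). In all, 5 of the 542 miRNAs (0.923%) were higher in every GDNF library than in every control: miR-96-5p, miR-192-5p, miR-301b-3p, miR-677-5p and miR-181b-1-3p. No miRNA was lower in every GDNF library. miR-677-5p and miR-181b-1-3p, named after their values were seen, had log2 values of 0.43 and 0.44. Without controls 1 and 5 the log2 values were smaller, 0.19 for miR-192-5p, 0.23 for miR-301b-3p, 0.28 for miR-677-5p and 0.14 for miR-181b-1-3p, and that of miR-215-5p was -0.21.

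The remaining positive values with the smallest p were mostly single arms of abundant hairpins. miR-30a-3p, of the brain-abundant miR-30 family, was at 386 ± 66.5 CPM without and 547.5 ± 158 CPM with GDNF (SD, n = 5 each; log2 0.50, edgeR adjusted p = 0.0997), whereas its more abundant arm miR-30a-5p had a log2 value of 0.18. miR-30e-3p, with the same seed as miR-30a-3p (UUUCAGU), had 0.40 and its partner miR-30e-5p -0.09. miR-151-3p had 0.35 and miR-151-5p 0.20, and miR-673-3p, from the imprinted Dlk1-Dio3 region, had 0.42. None of these passed the test. Without controls 1 and 5 the 3p arms had 0.34 (miR-30a-3p), 0.24 (miR-30e-3p), 0.15 (miR-151-3p) and 0.29 (miR-673-3p), and the 5p arms 0.06 (miR-30a-5p), -0.18 (miR-30e-5p) and 0.03 (miR-151-5p).

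Across all 542 miRNAs the comparison gave few calls and an uneven spread of small p-values. An edgeR p below 0.05 before adjustment was found for 88 miRNAs (16.2%), 27 of them higher with GDNF (4.98%) and 61 lower (11.3%). The median log2 value of all tested miRNAs was -0.00063. DESeq2, run on the same counts, called 26 miRNAs (4.80%), 7 higher (1.29%) and 19 lower (3.51%). With the replicate block edgeR called 3 (0.554%), all higher, namely miR-148a-3p, miR-183-5p and miR-182-5p. A fit of the 10 day 5 libraries alone called 0, with 55 miRNAs at an unadjusted edgeR p below 0.05. The count moved most with the controls left out: 43, 32 and 37 miRNAs were called without control library 2, 3 or 4. Of these, 26, 24 and 26 were arms raised in control libraries 1 and 5, a set of 37 among all 542 tested. The rule for raised arms, given below, uses the same control values, so this overlap carries no test. Without control library 1 or 5 the count of calls was 2 each, and without GDNF library 1 or 2 it was 0.

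**Figure D2:**
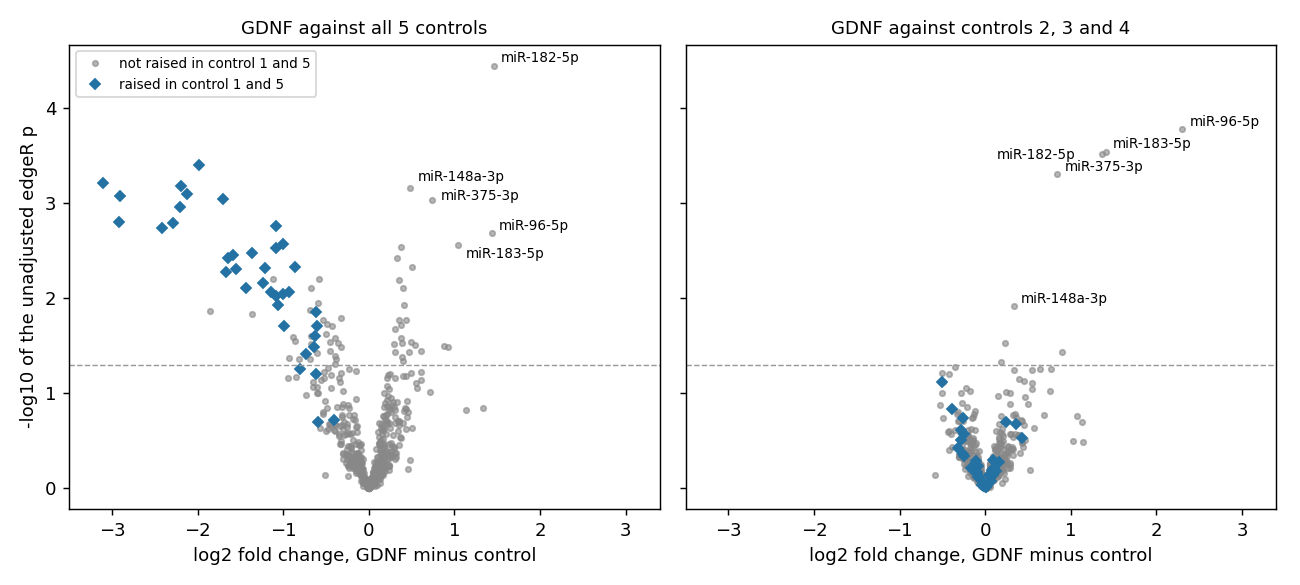
Log2 fold change of GDNF over control (x axis) against the negative log10 of the unadjusted edgeR p (y axis) for each tested miRNA, with all 5 controls at the left and with controls 2, 3 and 4 at the right. Blue diamonds are the arms raised in control libraries 1 and 5, and the dashed line marks an unadjusted p of 0.05. The blue arms fill the left flank in the first panel and lie near 0 in the second.

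Leaving out control libraries 1 and 5 removed every miRNA with a small p on the negative side and most of those on the positive side. Of 530 miRNAs then tested, 0 were called and 8 had an unadjusted edgeR p below 0.05 (1.51%), all of them higher with GDNF. These were the 3 cluster arms, miR-375-3p, miR-148a-3p, miR-301b-3p, miR-192-5p and the rare miR-181d-3p (8.202 CPM on average). The log2 value of miR-182-5p was then 1.36, with an SE of 0.301 and an edgeR adjusted p of 0.053, and its means differed 2.54-fold. miR-183-5p had 1.41 (SE 0.316, adjusted p = 0.053) and was also 2.54-fold higher in the means, against 2.04-fold with all controls. miR-96-5p moved from 1.44 to 2.30 (SE 0.498, adjusted p = 0.053) and miR-375-3p from 0.74 to 0.84 (SE 0.202, adjusted p = 0.0655).

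The call of miR-182-5p was therefore lost without these controls, at nearly the same fold change and with 3 controls in place of 5. With the replicate block and without controls 1 and 5, edgeR called 4 miRNAs (0.755%): miR-182-5p (log2 1.35, adjusted p = 1.58e-06), miR-375-3p (0.82, 3.61e-05), miR-183-5p (1.39, 0.0159) and miR-148a-3p (0.38, 0.0353). In that fit GDNF libraries 1 and 5 have no partner, so its values rest on replicates 2 to 4 alone. A fit of replicates 2 to 4 of both groups without the block called 0. DESeq2 without controls 1 and 5 also called 4, with miR-96-5p in place of miR-148a-3p. Of the 27 miRNAs that were higher at an unadjusted p below 0.05 with all controls, 26 were tested again, all 26 stayed positive, 7 still had an unadjusted p below 0.05, and the median log2 value went from 0.42 to 0.26. In 20 of these 27 the lowest day 5 library was control 1 or 5. The 61 lower ones split into 33 that belong to the raised arms, whose median went from -1.24 to -0.06, and 28 others, whose median went from -0.58 to -0.09. In 27 of those 28 the highest day 5 library was control 1 or 5. All these miRNAs were chosen by values from libraries that both fits share, so the counts and medians are a description and carry no test. The share of such miRNAs among all tested was not counted.

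Against controls 2, 3 and 4 alone, 8 miRNAs (1.48%) were higher in every GDNF library and 2 (0.369%) were lower in every one. The lower ones were miR-23a-3p (log2 -0.27) and miR-339-5p (log2 -0.35). miR-339-5p was at 62.2, 62.3 and 61.8 CPM in these controls and at 41.9 to 54.8 CPM with GDNF, while control library 1 held 44.8 CPM. miR-7015-3p and miR-224-5p, which the rule for naming miRNAs takes from this comparison, had log2 values of 0.64 and 0.77 and did not pass (edgeR adjusted p = 0.999 for both).

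**Figure D3:**
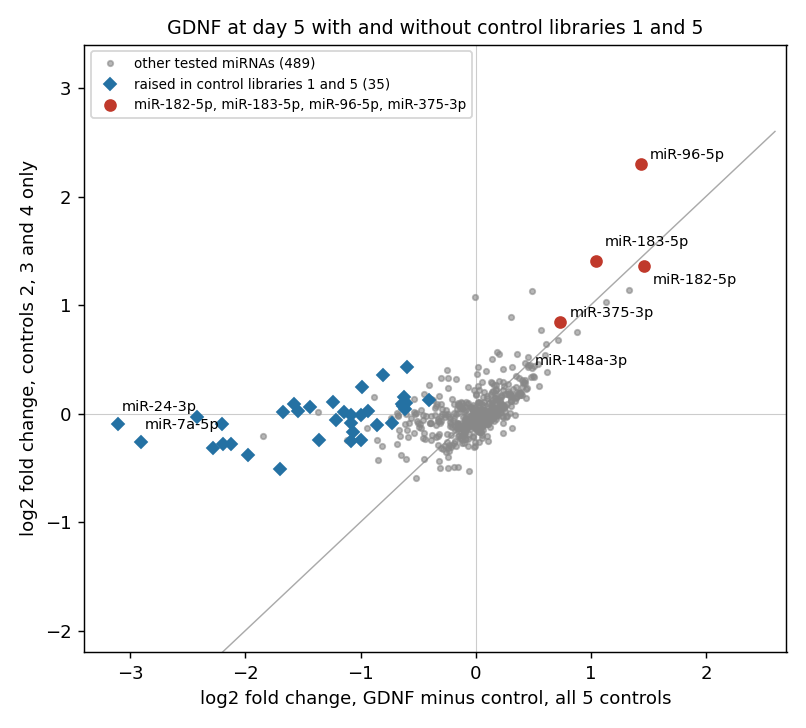
Log2 fold change of GDNF over control with all 5 controls (x axis) against the same value with controls 2, 3 and 4 only (y axis), for 528 miRNAs tested both ways. The diagonal marks equal values. miR-182-5p, miR-183-5p, miR-96-5p and miR-375-3p (red) lie near or above the diagonal, and the 35 raised arms (blue) lie between -0.51 and 0.43 on the y axis.

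The arms raised in control libraries 1 and 5 were taken as those at least 2-fold above the mean of controls 2, 3 and 4 in both libraries, among arms with a mean of at least 10 CPM. This rule uses the same control values as the GDNF comparison, so the values of these arms are a description and carry no test. It found 37 of 439 arms (8.43%), and 1 arm lay at or below 0.5-fold in both. Just inside the limit were miR-3960 (2.03-fold in the lower of the pair) and miR-412-5p (2.04-fold), and just outside it miR-194-5p (1.98-fold) and miR-296-3p (1.97-fold). The raised arms had a median of 3.59-fold in control 1 and 4.63-fold in control 5. In all 37, both libraries lay above each of the other 8 day 5 libraries. They held 2.46% and 3.46% of all counts in controls 1 and 5 and 0.495% to 0.814% in the other day 5 libraries.

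miR-24-3p, which sits in hairpins at chromosomes 8 and 13 and is broadly expressed, was at 1107 CPM in control 1 and 1623 CPM in control 5. The other controls held 55.3, 88.0 and 73.0 CPM and the GDNF libraries 35.1 to 107 CPM. Its log2 value for GDNF was -3.11 with all controls and -0.09 without controls 1 and 5. On day 1 it lay between 29.6 and 44.9 CPM.

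miR-7a-5p, an abundant neuronal miRNA known to repress alpha-synuclein, was at 2289 and 4537 CPM in controls 1 and 5. The other controls held 111, 304 and 295 CPM and the GDNF libraries 113 to 297 CPM. Its log2 value was -2.91 with all controls and -0.26 without the 2 libraries. Both of its partner arms stayed level: miR-7a-1-3p was at 53.7 and 55.9 CPM in controls 1 and 5 and 49.45 to 60.6 CPM in the other controls, and miR-7a-2-3p at 62.7 and 71.6 CPM against 55.3 to 65.9 CPM. miR-7b-5p, which shares the seed GGAAGAC, was 5.76-fold and 11.3-fold above the other controls and had a log2 value of -2.29.

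The pair of arms from the Mir411 hairpin on chromosome 12 shows the same contrast at higher counts. miR-411-3p was at 1166 and 1495 CPM in controls 1 and 5 and at 103 to 168 CPM in the other controls. miR-411-5p was at 8375 and 9568 CPM in controls 1 and 5 and at 6389 to 8092 CPM in the other controls. Their log2 values for GDNF were -2.21 and -0.04. miR-3068-5p was raised most, 23.3-fold and 26.3-fold, from 4.15 CPM to 96.6 and 109 CPM, while miR-3068-3p was at 0.899-fold and 0.847-fold.

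Over all hairpins, 28 of the 37 raised arms had a tested arm from the other side of the hairpin, 29 such arms in all. None of the 29 was 2-fold above the other controls in both libraries. Their medians were 1.01-fold in control 1 and 1.15-fold in control 5, compared with 0.937-fold and 1.01-fold over all arms. In 6 of the 29 opposite arms control 5 alone passed 2-fold, miR-379-3p, miR-137-5p, miR-30b-5p, miR-667-5p, miR-382-3p and miR-344f-5p. The share of all arms that did so was not counted. Of the 37 raised arms 16 were 3p arms (43.2%, compared with 49.4% of all 439 arms) and 12 came from the Dlk1-Dio3 region (32.4%, compared with 16.2%), among them miR-379-5p (1169 and 1473 CPM against 139 to 215 CPM).

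**Figure D4:**
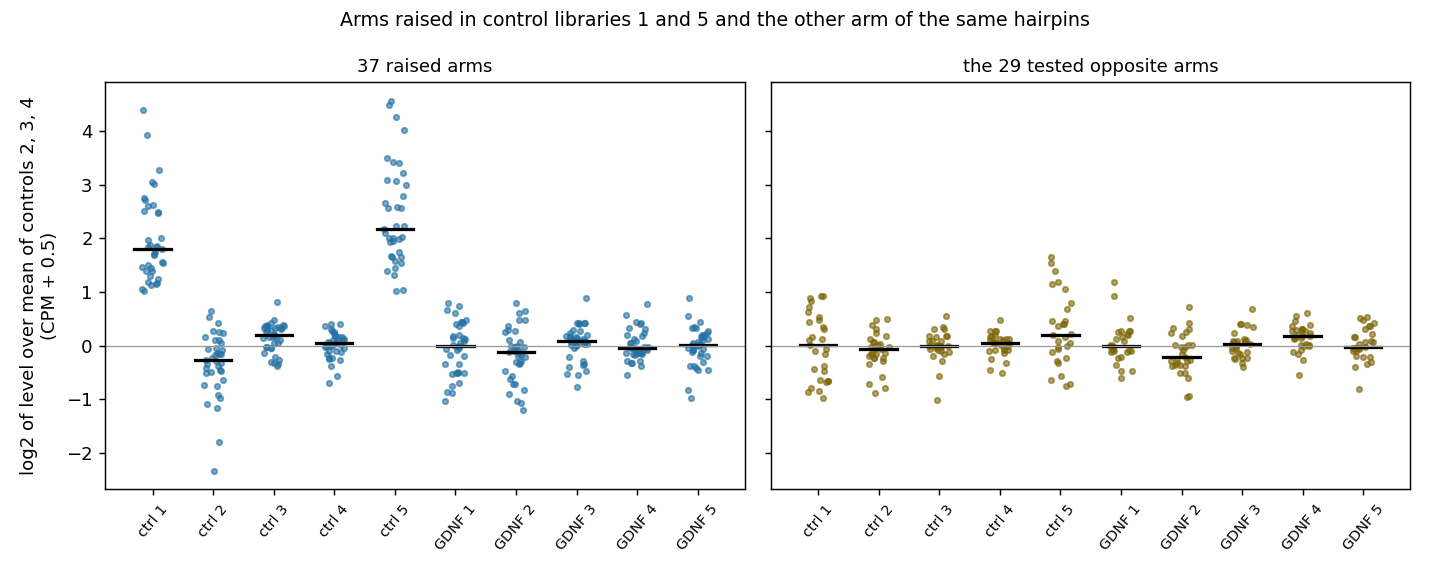
Level of each raised arm (left) and of the opposite arm of the same hairpins (right) in each day 5 library, as log2 of its CPM plus 0.5 over the mean of controls 2, 3 and 4 plus 0.5. Points are arms and black bars are medians. The 37 raised arms stand above the others in control libraries 1 and 5 only, and the 29 opposite arms are centred near 0 there.

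The sequences of the raised arms were then read for shared letters, after their values had been seen. Of the 33 raised arms with a sequence, 13 begin with UG (39.4%), compared with 50 of all 394 arms of at least 10 CPM that have one (12.7%). For a start with UGG it was 7 of 33 (21.2%) and 10 of 394 (2.54%). The run CACGG at any position was found in 5 of 33 (15.2%) and 12 of 394 (3.05%). The raised and all arms had nearly the same median GC content, 47.6% and 47.8%. Other features were read as well, among them the first and last base and the length, and the printed ones are a selection. The arms are not independent. miR-7a-5p and miR-7b-5p share their seed, and miR-154-3p, miR-323-3p, miR-411-3p and miR-494-3p all come from the Dlk1-Dio3 region. These shares describe letters in these arms, and no test was made of them.

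All 10 arms that start with UGG are shown with these letters in capitals, the 7 raised ones first.
miR-24-3p: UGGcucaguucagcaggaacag
miR-7a-5p: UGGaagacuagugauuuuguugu
miR-7b-5p: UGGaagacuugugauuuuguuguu
miR-379-5p: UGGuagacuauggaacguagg
miR-3535: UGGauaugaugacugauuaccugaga
miR-412-5p: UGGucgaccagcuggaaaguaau
miR-449a-5p: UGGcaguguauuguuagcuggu
miR-184-3p: UGGacggagaacugauaagggu
miR-9768-5p: UGGcacucggaggacggcacugu
miR-34a-5p: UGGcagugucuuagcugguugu
The last 3 were not raised by the rule. miR-184-3p was 7.77-fold above the other controls in control 1 and 1.78-fold in control 5, miR-34a-5p was 1.62-fold and 1.03-fold, and miR-9768-5p was 0.848-fold and 1.11-fold.

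The arms with CACGG are shown with that run in capitals, the 5 raised ones first and then the 7 that were not.
miR-494-3p: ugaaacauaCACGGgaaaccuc
miR-411-3p: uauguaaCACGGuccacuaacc
miR-154-3p: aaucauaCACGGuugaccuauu
miR-455-3p: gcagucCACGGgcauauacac
miR-323-3p: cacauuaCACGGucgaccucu
miR-485-3p: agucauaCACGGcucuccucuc
miR-382-3p: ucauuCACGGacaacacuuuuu
miR-363-3p: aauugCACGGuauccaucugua
miR-140-3p: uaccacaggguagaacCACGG
miR-212-3p: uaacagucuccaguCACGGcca
miR-5131: cggcgcccCACGGagccccgagc
miR-6240: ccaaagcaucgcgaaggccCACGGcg
The raised ones were 2.23-fold to 8.28-fold above the other controls in control 1 and 2.72-fold to 16.6-fold in control 5. miR-485-3p was at 1.71-fold and 1.98-fold and miR-382-3p at 1.65-fold and 2.64-fold, while miR-363-3p was at 0.639-fold and 0.889-fold. The last 4 were at 1.07-fold to 1.52-fold in control 1 and 0.688-fold to 1.37-fold in control 5.

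Known groups of miRNAs were read from 16 lists that hold every tested arm of their members. The miR-183 cluster was the list with a called arm, 1 of 4, with a median log2 value of 1.24 with all controls and 1.39 without controls 1 and 5. In each of the other 15 lists 0 arms were called, with medians between -0.18 and 0.29, against -0.00063 over all miRNAs tested and 0.185% of them called. The neuron-enriched list (8 arms) had a median of -0.09, and 0.03 without controls 1 and 5. Its lowest member was miR-137-3p, a raised arm (log2 -1.55, and 0.02 without them). The list of miRNAs tied to dopaminergic neurons (9 tested arms, of miR-7 and miR-135) had a median of -0.12, and its most negative members were the raised miR-7a-5p and miR-7b-5p. miR-133b, also on that list, could not be tested, as miR-133b-3p and miR-133b-5p had 0 reads at day 5.

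Activity-regulated miRNAs (7 arms, such as miR-132, miR-212 and miR-134) had a median of -0.10 with all controls and -0.06 without controls 1 and 5. miR-146b-5p, an inhibitor of Toll-like receptor signalling listed there, was the most negative with -1.09 (edgeR adjusted p = 0.0697), and -0.25 without them. Its seed relative miR-146a-5p (GAGAACU) had -1.14 and 0.01. The Dlk1-Dio3 region, which carries a large imprinted miRNA cluster expressed in neurons, had 78 tested arms with a median of -0.07, of which 17 were lower and 4 higher at an unadjusted edgeR p below 0.05, beside 11.3% lower and 4.98% higher among all miRNAs tested. Of the 78, 12 are raised arms. Without controls 1 and 5 its 77 tested arms had a median of 0.02 and 0 below that p. The miR-17-92 group (23 arms), let-7 with miR-98 (20 arms) and miR-99/100 with miR-125 (11 arms) had medians of -0.02, -0.09 and 0.10.

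Vascular and mesenchymal arms (11) had a median of 0.07 with all controls and 0.26 without controls 1 and 5, with members between -0.59 and 1.14 then. miR-199a-5p, a mesenchymal miRNA named after its values were seen, was at 182 CPM in GDNF library 1 and at 12.7 to 30.9 CPM in the other 9 libraries. miR-10a-5p, which lies in a Hox gene cluster and marks posterior tissue, was at 77.3, 148, 1.78, 0.908 and 1.09 CPM in the controls and 11.5, 139.6, 4.71, 0.998 and 0.780 CPM with GDNF. It was high in replicate 2 of both groups and in control 1. The part of these markers in the GDNF differences was not tested. The list for red blood cells (3 arms) had a median of 0.13, with miR-486-5p (the joined entry of miR-486a and miR-486b) at 3277, 5098, 4903, 5327 and 3566 CPM without and 4214, 5864, 6246, 6199 and 6371 CPM with GDNF (log2 0.38, edgeR adjusted p = 0.192, and 0.17 on the log2 scale without controls 1 and 5). The list for epithelial and neuroendocrine cells (3 arms) had a median of 0.29 and held miR-375-3p, whereas miR-203-3p, of skin epithelium, had 0.10. The oligodendrocyte-lineage list (3 arms) had a median of -0.18, and -0.11 without controls 1 and 5. Its miR-219a-2-3p had log2 values between -0.67 and -0.13 over 23 alternative fits and was called in 0 of them.

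**Figure D5:**
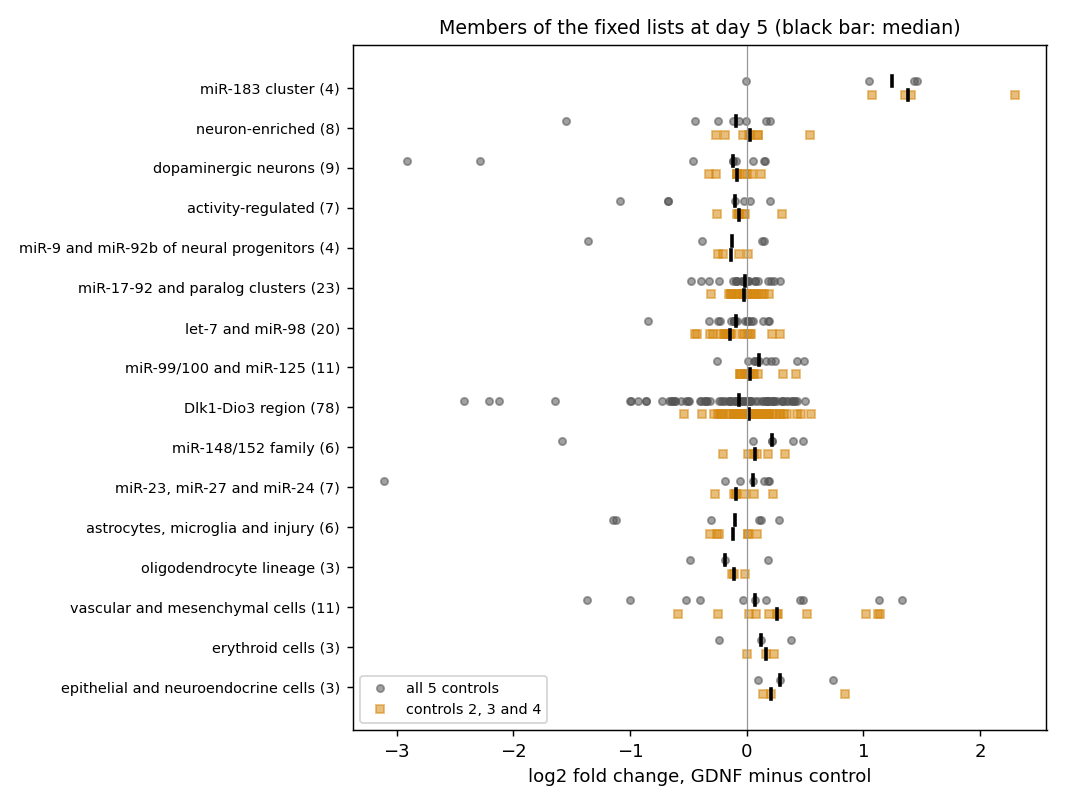
Log2 fold change of GDNF over control (x axis) for each tested member of the 16 lists (y axis, number of members in brackets), with all 5 controls in grey and with controls 2, 3 and 4 in orange, and black bars at the medians. The medians of the miR-183 cluster are at 1.24 and 1.39, and those of the other lists lie between -0.18 and 0.29. The most negative grey points are raised arms.

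None of the most abundant miRNAs was called. miR-181a-5p, the most abundant, had 144215 ± 23268 CPM without and 159772 ± 17423 CPM with GDNF (SD, n = 5 each; log2 0.15, SE 0.115, 95% interval -0.09 to 0.39). miR-9-5p, of neural progenitors and young neurons, had a log2 value of 0.15 (95% interval -0.17 to 0.47). miR-99b-5p had 0.49 (95% interval -0.03 to 1.01), with 18764 CPM in control 3 and 31492 to 53359 CPM in the other controls. miR-127-3p and miR-434-3p, from the Dlk1-Dio3 region, each had 0.22 (0.10 and 0.16 without controls 1 and 5), and the neuronal miR-128-3p had -0.25 (95% interval -0.79 to 0.30). Without controls 1 and 5 miR-181a-5p had 0.03, miR-9-5p 0.01, miR-99b-5p 0.42 and miR-128-3p -0.27. The 23 other miRNAs that the naming rule took had log2 values between -0.67 and 0.30, and 0 of them were called.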

How the data were processed

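Each library has 1 deposited file of unnormalized read counts for mature miRNAs, which the authors made with cutadapt 1.8.1, STAR 2.4.1d and HTSeq on genome build mm10, per the submitters' processing notes. The HTSeq version, the miRNA annotation and how reads with several matches were counted are not given in the sources used here. Each file lists 1886 miRNAs, and reads tallied as having no feature (9.51 to 19.5% at day 5) were left out. A mature arm made from several genes has 1 value.

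Of 1581 miRNAs with a read, filterByExpr kept 542, and these held 99.9% or more of each library's counts. All 20 libraries entered 1 quasi-likelihood fit in edgeR 4.0.16 (R 4.3.3, TMM scaling, robust estimation) with 1 coefficient per group, and the day 5 contrast was read from it. Tests are two-sided, and calls were made where p, adjusted by Benjamini-Hochberg over all miRNAs tested, was below 0.05. Levels are TMM-scaled CPM. A fit without control libraries 1 and 5 (18 libraries) was made in the same way and kept 530. DESeq2 1.42.0, limma 3.58.1 voom, other scalings and filters, single libraries left out and a replicate block were alternatives. The code was tested on simulated data.

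Same-numbered control and GDNF libraries of day 5 deviated together from their group means (r across 542 miRNAs 0.207, 0.532, 0.244, 0.455 and 0.266). The replicate number was used as a block in an alternative fit only, and the main fit has no block. Controls 1, 3 and 5 correlated somewhat better with another number, GDNF 2 (0.326), GDNF 5 (0.254) and GDNF 4 (0.284), and all r were positive within replicates 1 and 2 and within replicates 3 to 5 and negative between these sets. The labels do not say what a number stands for, so pairing by number is an assumption of the block fit. No 2 libraries of a group agreed within counting noise (lowest chi-square per degree of freedom 88.3).

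The libraries, lists and miRNAs described were chosen with earlier results of these data known. Among miRNAs of at least 10 CPM, the naming rule took the 10 with the smallest p in each direction, the 10 without control libraries 1 and 5, their opposite arms and same-seed relatives, the miR-183 cluster, the 2 most abundant arms of each of 16 lists and the 10 most abundant miRNAs, 74 in all.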

Additional observations from a re-analysis of the deposited data

Results flagged for a closer look

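In 6 of the 112 groups of 5 values checked, 1 library stood so far from the other 4 that its gap to the nearest exceeded 0.71 of the group's whole range. Chance gives about 1 such group in 20. Among the controls, miR-455-3p, a raised arm, was at 73.8 CPM in library 5 and next highest at 25.4 CPM in library 1, and miR-339-5p was at 44.8 CPM in library 1 and next lowest at 58.1 CPM. With GDNF, the neuronal miR-128-3p was at 10662 CPM in library 2 and next highest at 6910 CPM, and the oligodendrocyte-lineage miR-219a-2-3p was at 294.9 CPM in library 1 and next highest at 195.7 CPM. The joined entry miR-486b-5p and miR-486a-5p was at 4214 CPM in GDNF library 1 and next lowest at 5864 CPM. The share of counts on 3p arms was 26.1% in GDNF library 2 and next lowest at 28.3%. In both groups miR-128-3p was highest in replicate 2 (13586 CPM in the controls).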

How the results depend on the processing

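With all libraries, 1 miRNA was called, and the count was 26 with DESeq2, 2 with upper-quartile scaling, 13 at a mean of at least 10 CPM (3 higher, 10 lower), 3 with the replicate block within each day, 0 in the day 5 libraries alone with or without the block, 2 within replicates 1 and 2, 2 within replicates 3 to 5, and 0 to 43 with 1 library left out. Without control libraries 1 and 5 it was 0, then 4 with DESeq2, 4 with the replicate block, 4 without a filter, 3 with RLE scaling, 3 at 10 CPM, 3 within replicates 3 and 4, 2 with voom, and 0 to 3 with 1 library left out. It stayed 0 with upper-quartile scaling, in the day 5 libraries alone and with replicates 2 to 4 of both groups. The block changed no other call than those given above. Over 51 miRNAs and 1155 alternative values, 1017 kept direction and side of the threshold, 87 gained a call, 5 lost one and 46 changed sign. Only miR-182-5p had a call to lose, and all 5 losses fell among its 23 alternative values. The log2 value of miR-183-3p became 0.39 with voom, 0.13 with upper-quartile scaling, 0.11 with the block, 1.07 without controls 1 and 5, 0.55 with both, and 0.34 within replicates 3 to 5. Without controls 1 and 5 it became 0.088 for miR-152-3p, -0.21 for miR-215-5p (-0.18 with the block), 0.12 for miR-379-3p (0.086), 0.060 for miR-411-5p (0.050), -0.052 for miR-3068-3p (-0.11) and 0.012 for miR-146a-5p, and -0.0079 for miR-21a-5p with the block. Within replicates 1 and 2 it became -0.043 for miR-215-5p, -0.065 for miR-151-5p, -0.20 for miR-7a-1-3p, -0.11 for miR-3068-3p and -0.057 for miR-9-5p. Within replicates 3 to 5 it became 0.048 for miR-411-5p, 0.12 for miR-124-3p and 0.015 for miR-128-3p. It became 0.057 for miR-411-5p and 0.091 for miR-124-3p with upper-quartile scaling, and for miR-124-3p 0.0087 without a filter and 0.0031 at 10 CPM. With 1 library left out the ranges that cross 0 were -0.36 to 0.36 for miR-183-3p, -0.12 to 0.37 for miR-215-5p, -0.13 to 0.041 for miR-411-5p, -0.020 to 0.20 for miR-3068-3p and -0.089 to 0.053 for miR-124-3p. The share of the 10 most abundant miRNAs differed by 1.64 points without controls 1 and 5 (exact p = 0.143) and by 2.38 to 3.88 points with 1 library left out (exact permutation p 0.00794 to 0.0794). The differences in total count (-307396 to 508325), reads without a feature (-2.03 to 0.47 points), 3p arms (-0.36 to 1.29 points) and miRNAs detected (-33.7 to 38.8) changed sign with 1 library left out. The causes were not tested. Depth limits the values of rare arms such as miR-96-5p and miR-183-3p.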
